A study of Mus musculus with 20 samples.

Results

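Amino acids, glucose and monocarboxylates such as lactate cross cell membranes through solute carrier proteins, and 8 families of these carriers were followed here in the mouse lens. A gene was included when it had a probe set of its own on the array and a symbol that starts with Slc1a, Slc2a, Slc3a, Slc6a, Slc7a, Slc16a, Slc36a or Slc38a followed by a number. Where a gene had several probe sets, the one with the highest average over all 20 arrays stood for it. This gave 85 of 18193 genes, and 164 probe sets in all: 21 genes of Slc6a, 16 of Slc7a, 13 of Slc16a, 12 of Slc2a, 9 of Slc38a, 7 of Slc1a, 5 of Slc36a and 2 of Slc3a. Of the 85, 81 are carriers or carrier subunits, and the other 4 (Slc2a4rg-ps, Slc36a1os, Slc6a19os and Slc7a6os) carry the symbol of a related or neighbouring gene.

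A lens has no blood supply of its own once the embryonic vessels regress, so it takes sugar and amino acids from the fluid around it. Slc2a proteins let glucose in down its gradient, and Slc16a proteins carry lactate and related acids together with protons, or in some members aromatic amino acids or creatine. Slc3a2 is a heavy chain that pairs with light chains of the Slc7a family to exchange large neutral or basic amino acids, or cystine for glutamate. Slc38a, Slc1a and Slc6a proteins use the sodium gradient to move glutamine, other neutral amino acids, glutamate, glycine, taurine or creatine. Some Slc36a proteins move small amino acids with protons. When amino acids run short, the transcription factor ATF4 is known to raise many genes of amino acid supply, several carriers among them.

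Total RNA from both lenses of 1 mouse went to each of 20 Affymetrix arrays, 5 per group, in a comparison of lenses that lack E2F1, E2F2 and E2F3 with lenses that lack E2F2 alone. Controls taken as E17.5 embryos and as newborns (P0) were E2F2-/-. Knockouts of the same ages, labelled TKO, were Cry-Cre E2F1-/- E2F2-/- E2F3f/f, so E2F2 was missing from all 20 samples and the Cre transgene, named for a crystallin promoter, was labelled only in knockouts. The control group therefore does not show what Cre alone does, and E2F3 could be deleted only in cells where that promoter had been active. Litter, sex and day of hybridisation are not labelled, so p-values measure the spread between these samples. The labels name epithelial cells, but whole lenses were dissected, and 12 of 12 lens fibre markers and 9 of 9 lens epithelium markers lay above the array median in all control arrays.

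Array medians lay between 5.05 and 5.25 (log2), a range of 0.196. Control arrays correlated with the others of their group at a mean of 0.994 to 0.996, knockout arrays at 0.990 to 0.993 at P0 and at 0.981 to 0.990 at E17.5. Among the last, replicates 24 and 27 correlated more with controls of their age (0.990 and 0.993) than with the other knockouts (0.985 and 0.988). The signal of E2f1 was higher in knockouts, by 0.60 ± 0.08 (adjusted p = 0.000409) in embryos and 0.44 ± 0.08 (adjusted p = 0.000871) in newborns, and that of E2f3 passed the test at neither age (adjusted p = 0.626 and 0.659). The sources used here do not say whether these probe sets lie in deleted exons, so genotypes and every direction below rest on the labels. Markers of other eye tissues moved with genotype: at P0 15 of 17 tested retina markers and 6 of 10 pigment cell markers were higher, with mean levels per array of 5.06 to 6.24 against 6.61 to 7.57 for retina and 6.17 to 6.51 against 6.92 to 7.50 for pigment cells (control against knockout, log2). Over the same arrays 7 of 9 lens epithelium markers were lower and 1 higher, with mean levels of 8.80 to 9.17 against 7.15 to 8.32. Of the fibre markers, 1 of 12 was lower. At E17.5, where 0 of 17 retina markers were called, the retina list stood at 5.83 to 6.74 in controls, at 5.93 and 6.27 in knockout replicates 24 and 27, and at 7.88, 7.58 and 6.85 in replicates 25, 26 and 28. Knockout E17.5 replicate 28 also stood apart for endothelium markers (8.4, controls 6.89 to 7.59), macrophage markers (7.54, controls 5.83 to 7.03), lens epithelium markers (7.26, controls 8.06 to 8.84) and fibre markers (12.61, all controls at 12.93 or more). The pigment markers Rpe65 and Gpr143 were above the array median in no array.

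In all 20 arrays, 41 of the 85 members (48.2%) lay above the array medians, against 10214 of 18193 genes (56.1%). A further 17 were above them in 1 to 19 arrays, 7 of these in fewer than 5, and 27 members (31.8%, against 31.1% of all genes) in none. Counted within groups, members above the median in all 5 arrays numbered 48 in controls and 44 in knockouts at E17.5, and 46 and 45 at P0. With the median taken over 1 probe set per gene, which is a higher bar, 24 members passed it in all arrays. The test needed a level above the median in at least 5 arrays, which left 51 members. Brightness differs between probe sets for reasons other than mRNA amount, so these counts order no gene against another.

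Families differed in how many members had signal above the medians. Of the 9 Slc38a genes, 8 were above them in all 20 arrays and none was below them in all. Slc16a had 8 of 13, Slc7a 7 of 16, Slc2a 5 of 12, Slc1a 3 of 7, Slc36a 2 of 5 and Slc3a 1 of 2. In Slc6a, a family of neurotransmitter, creatine, taurine and amino acid carriers, 7 of 21 genes were above the medians in all arrays and 11 in none, among them the dopamine carrier Slc6a3, the glycine carrier Slc6a5 and the neutral amino acid carriers Slc6a14, Slc6a18 and Slc6a19. The 10 members with the highest control means included the glucose carrier Slc2a1, the heavy chain Slc3a2 and its light chain Slc7a5, the amino acid carriers Slc38a2, Slc38a10 and Slc7a2, and the taurine carrier Slc6a6.

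**Figure D1:**
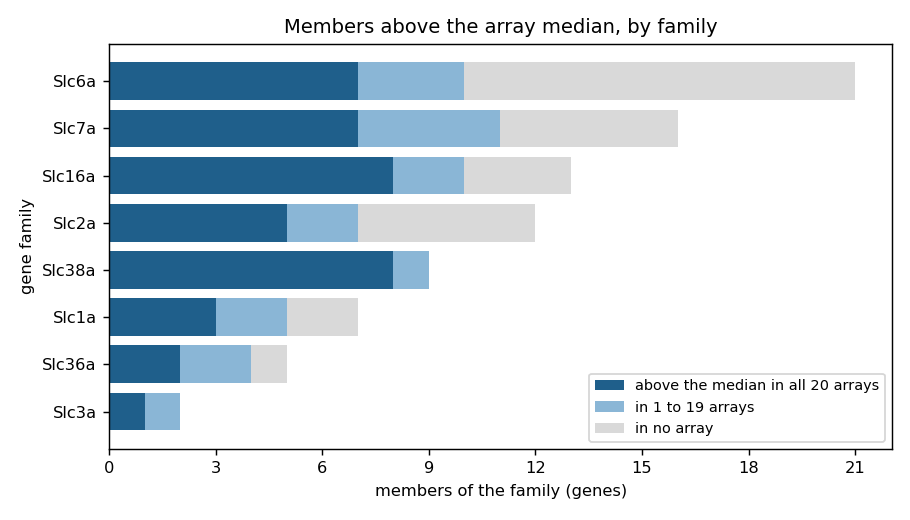
Number of members per family (horizontal axis, genes) above the array median in all 20 arrays, in some and in none. All but 1 of the Slc38a genes were above it in all arrays, and 11 of the 21 Slc6a genes in none.

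Amino acid shortage acts on promoters through elements whose core is read here as TGATGNAA, so this core was looked for in the promoter windows (250 bases before to 50 after the start, RefSeq, GRCm38.p6). On both strands it occurred in 3.97% of all 32851 windows and for 4.51% of 27025 genes. Of the 62 members with a window, 4 (6.45%) held it: Slc7a11, Slc1a4, Slc7a7 and the untested Slc6a21. The windows of the 3 tested genes are shown because each was called in a comparison given further on, with the core in capitals: Slc7a11 (chr3:50443564-50443863, minus strand), Slc1a4 (chr11:20332664-20332963, minus strand) and Slc7a7 (chr14:54417895-54418194, minus strand).
Slc7a11: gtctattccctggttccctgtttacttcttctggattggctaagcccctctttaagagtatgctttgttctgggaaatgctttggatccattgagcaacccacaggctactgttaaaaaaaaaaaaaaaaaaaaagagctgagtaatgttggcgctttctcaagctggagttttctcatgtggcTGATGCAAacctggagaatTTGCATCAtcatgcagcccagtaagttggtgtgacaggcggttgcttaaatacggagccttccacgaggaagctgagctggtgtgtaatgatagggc
Slc1a4: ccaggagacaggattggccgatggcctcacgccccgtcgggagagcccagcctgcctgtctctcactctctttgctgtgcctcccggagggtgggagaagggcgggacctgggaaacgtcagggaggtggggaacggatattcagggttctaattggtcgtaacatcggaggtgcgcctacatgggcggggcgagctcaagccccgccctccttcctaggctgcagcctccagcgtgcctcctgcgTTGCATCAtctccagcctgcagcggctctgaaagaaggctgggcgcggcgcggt
Slc7a7: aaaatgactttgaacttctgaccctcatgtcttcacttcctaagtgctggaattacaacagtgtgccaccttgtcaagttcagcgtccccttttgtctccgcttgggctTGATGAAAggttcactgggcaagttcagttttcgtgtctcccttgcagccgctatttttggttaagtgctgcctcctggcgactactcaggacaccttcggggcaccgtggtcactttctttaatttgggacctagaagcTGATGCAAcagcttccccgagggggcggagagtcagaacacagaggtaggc
Slc7a11 has a core 66 bases before its start on the gene's strand and another 47 before it on the opposite strand. Slc1a4 has 1 on the opposite strand, 4 bases before the start. Slc7a7 has 2 on its own strand, 141 and 1 bases before the start. A match describes these letters and is not a measured site. The letters TTTNNCGC, the core of E2F sites with any base at 2 positions, were searched the same way and occurred in 5.17% of windows and in 1 of the 62 members, the untested Slc16a14.

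At E17.5, the comparison of knockout with control lenses called 9 members. Of 51 tested, 2 were higher and 7 lower, 17.6% called against 13% of all 11859 genes tested (5.54% higher and 7.45% lower). The carriers higher in knockouts were Slc38a4, a sodium-coupled carrier of small neutral amino acids, and Slc16a4, a monocarboxylate family member. Those lower were Slc38a5, Slc38a3, Slc1a4, Slc7a5, Slc16a13, Slc2a9 and Slc6a2. In whole lenses, fewer cells of a type and less RNA per cell cannot be told apart. The median change of the 51 was -0.07, against -0.03 for all genes. Groups did not overlap for 2 members with higher and 5 with lower signal in knockouts (1 of the 5, Slc6a17, was not called), where 4% and 5.95% of all genes did not, or 9.95% in both directions.

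Slc38a4 had signals (log2) of 7.24, 7.43, 7.61, 7.33 and 7.57 in the 5 control arrays and 8.42, 8.34, 8.35, 8.01 and 8.33 in the 5 knockout arrays, with controls in the order of replicates 10, 11, 12, 13 and 15 and knockouts in the order of 24 to 28. Every knockout array lay above every control array. The change was 0.85 ± 0.17 (SE, adjusted p = 0.00496), or 1.81-fold higher. A dimmer probe set of the gene changed by 0.27. Slc16a4 stood at 6.13, 6.41, 6.21, 6.35 and 6.50 in the 5 control arrays and 6.65, 6.74, 7.17, 6.76 and 7.17 in the 5 knockout arrays. Its groups also kept apart, and the change was 0.58 ± 0.13 (SE, adjusted p = 0.012). Its other probe set, above the median in 1 array, changed by 0.11, and with the mean of its probe sets the change was 0.34 (adjusted p = 0.0895). At P0 neither gene passed the test, with changes of 0.32 (adjusted p = 0.145) and -0.13 (adjusted p = 0.48). The dimmer probe sets changed by -0.41 and 0.28 at that age, each against the sign of the probe set used.

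Sodium-coupled glutamine carriers of the Slc38a family were among those lower. Slc38a5, which moves glutamine, asparagine, histidine and serine, had 5.86, 5.99, 6.25, 6.23 and 6.02 in the 5 control arrays and 5.41, 5.18, 4.97, 6.07 and 4.86 in the 5 knockout arrays. The knockout array of replicate 27 lay among the controls and the other 4 below all of them, and the change was -0.77 ± 0.18 (SE, adjusted p = 0.0109). With only the compared groups in the fit the call ended (adjusted p = 0.0621). Slc38a3, a carrier of the same substrates, changed by -0.44 ± 0.13 (SE, adjusted p = 0.0274), with overlapping groups. Its dimmer probe set, above the median in 17 arrays, changed by -0.13. The call for Slc38a3 ended when control E17.5 replicate 11, 12, 13 or 15 or knockout E17.5 replicate 26 or 28 was left out (adjusted p 0.0537 to 0.0724).

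Slc1a4 exchanges alanine, serine and cysteine. Its signal was 8.10, 7.84, 8.23, 8.33 and 8.08 in the 5 control arrays and 7.62, 7.76, 7.75, 7.69 and 7.27 in the 5 knockout arrays, so that all 5 knockout arrays lay below the lowest control. The change of -0.50 ± 0.10 (SE, adjusted p = 0.00484) was 1.42-fold lower, and its other probe sets changed by -0.10 and -0.40. Slc7a5, the light chain for leucine and other large neutral amino acids, changed by -0.49 ± 0.15 (SE, adjusted p = 0.035) from 11.24, 11.16, 11.32, 11.13 and 11.14 to 11.10, 10.84, 10.57, 10.95 and 10.10, and its groups did not overlap. The call for Slc7a5 ended when control E17.5 replicate 10, 11, 12, 13 or 15 or knockout E17.5 replicate 26 or 28 was left out (adjusted p 0.0570 to 0.0759).

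Smaller falls were called for Slc16a13, a monocarboxylate family member, at -0.37 ± 0.10 (SE, adjusted p = 0.018), for the urate and sugar carrier Slc2a9 at -0.36 ± 0.11 (SE, adjusted p = 0.0415) and for the noradrenaline carrier Slc6a2 at -0.31 ± 0.09 (SE, adjusted p = 0.029). Their signals were low, with E17.5 knockout means of 5.67, 5.45 and 5.69 against array medians of 5.05 to 5.25. The other probe sets of Slc2a9 and Slc6a2 were above the median in no array. The call for Slc2a9 ended when control P0 replicate 8, control E17.5 replicate 10, 11, 12, 13 or 15 or knockout E17.5 replicate 25 or 26 was left out (adjusted p 0.0504 to 0.0983). The call for Slc6a2 ended when control E17.5 replicate 10, 11 or 12 or knockout E17.5 replicate 25 or 26 was left out (adjusted p 0.05003 to 0.0759). Slc6a17, a vesicle carrier of neutral amino acids, had groups that did not overlap and a change of -0.08 ± 0.07 (SE, adjusted p = 0.499), which did not pass.

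The count of 9 calls at E17.5 fell to 5 without control replicate 11, control replicate 12 or knockout replicate 26, each left out alone. It was 13 without knockout replicate 27 and 11 without knockout replicate 24, the replicates that correlated more with controls. Replicate 28, which stood apart by other tissue markers, was the lowest knockout array for Slc7a5, Slc1a4 and Slc38a5, and without it the count was again 9, with Slc1a4 and Slc38a5 still called and Slc7a5 not. With only the compared groups in the fit, calls also ended for Slc7a5, Slc38a3, Slc16a13, Slc2a9 and Slc6a2 (adjusted p 0.0774 to 0.129). Centring each array on its median ended those for Slc7a5 and Slc2a9 (adjusted p 0.0632 to 0.0638), and dropping the filter that for Slc2a9 (adjusted p = 0.0504).

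**Figure D2:**
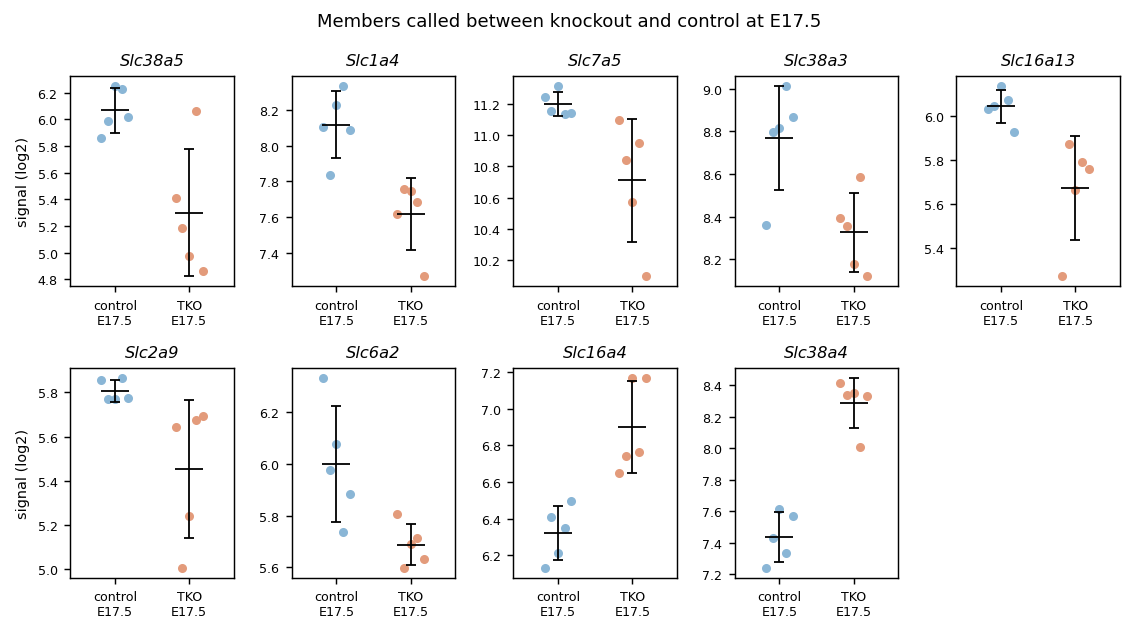
Signal (log2, vertical axis) of the 9 members called at E17.5 in each of the 5 control and 5 knockout arrays of that age, with the group mean and SD. Slc38a4 and Slc16a4 lie higher in all knockout arrays, and for Slc38a5 knockout replicate 27, at 6.07, lies among the controls.

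At birth, 7 members were higher in knockout lenses and 10 lower of the 51 tested. This was 33.3% of the members, close to the 34.4% called among all genes (17.1% higher and 17.3% lower). Lower were carriers of glucose (Slc2a1), of large neutral amino acids (Slc7a5 and Slc7a8), their heavy chain Slc3a2, cystine (Slc7a11), basic amino acids (Slc7a2) and glutamine or small neutral amino acids (Slc38a2, Slc38a3 and Slc38a5), with Slc16a13. Higher were the carriers of aromatic amino acids (Slc16a10), glutamate (Slc1a3), glycine (Slc6a9) and lactate (Slc16a1), with Slc7a6, Slc7a7 and Slc36a4. Groups did not overlap for 4 members with higher and 8 with lower signal (1 of the 4, Slc6a8, was not called), where 13.2% and 12.7% of all genes did not, or 25.9% in both directions.

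Slc2a1 encodes GLUT1, the glucose carrier of many epithelia and barriers. At P0 its signal was 11.56, 11.80, 11.81, 11.76 and 11.74 in the 5 control arrays and 10.87, 11.22, 10.89, 10.95 and 11.42 in the 5 knockout arrays, with controls in the order of replicates 1, 5, 6, 7 and 8 and knockouts in the order of 17, 18, 19, 21 and 22. All knockout arrays lay below all controls, and knockout replicates 18 and 22 were the nearest to them. The change was -0.66 ± 0.10 (SE, adjusted p = 0.000174), 1.58-fold lower, and its other probe sets changed by -0.70 and -0.70. At E17.5 the change was -0.21 (adjusted p = 0.148). Of the other 6 tested Slc2a members none passed at P0. Slc2a3, a glucose carrier known from neurons, changed by 0.46 ± 0.26 (SE, adjusted p = 0.183), and Slc2a8, an intracellular sugar carrier, by -0.19 ± 0.08 (SE, adjusted p = 0.0673).

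Among the heterodimer chains, Slc7a8, a light chain for large and small neutral amino acids, had the largest fall at P0 among the probe sets used. It stood at 7.38, 7.59, 7.74, 7.65 and 7.80 in the 5 control arrays and 6.10, 5.88, 6.19, 6.18 and 7.03 in the 5 knockout arrays. Knockout replicate 22 was at 7.03 and the other 4 at 6.19 or less, all below the lowest control. The change was -1.35 ± 0.25 (SE, adjusted p = 0.00071), 2.56-fold lower. Slc7a5 stood at 11.29, 11.39, 11.42, 11.42 and 11.22 in the 5 control arrays and 10.61, 10.19, 10.59, 10.67 and 10.93 in the 5 knockout arrays. Its groups did not overlap either, and the change was -0.75 ± 0.15 (SE, adjusted p = 0.00102), 1.68-fold lower. Their common heavy chain Slc3a2, also known as the CD98 heavy chain, changed by -0.33 ± 0.11 (SE, adjusted p = 0.027), with overlapping groups. The call for Slc3a2 ended when control P0 replicate 5, 7 or 8 or knockout P0 replicate 17, 18 or 21 was left out (adjusted p 0.0533 to 0.0607).

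Slc7a11 is the light chain that exchanges cystine for glutamate and so supplies glutathione synthesis. Its signal at P0 was 5.93, 6.12, 6.07, 6.07 and 6.35 in the 5 control arrays and 5.76, 5.13, 5.85, 4.97 and 5.81 in the 5 knockout arrays. All knockout arrays lay below the lowest control, replicates 18 and 21 by the most, and the change was -0.60 ± 0.18 (SE, adjusted p = 0.0167). The call for Slc7a11 ended when knockout P0 replicate 18 was left out (adjusted p = 0.0541). Its other, dimmer probe set, above the median in 4 arrays, changed by 0.35, and with the mean of both the change was -0.12 (adjusted p = 0.556). The light chains Slc7a7 and Slc7a6, which exchange basic for neutral amino acids, went the other way, at 0.37 ± 0.12 (SE, adjusted p = 0.0206) and 0.29 ± 0.11 (SE, adjusted p = 0.0464). The call for Slc7a7 ended when control P0 replicate 1 or 6 or knockout P0 replicate 18 was left out (adjusted p 0.0562 to 0.0614). The call for Slc7a6 ended when control P0 replicate 1, 5, 6, 7 or 8, control E17.5 replicate 10, 11, 12, 13 or 15 or knockout P0 replicate 17, 18, 19 or 22 was left out (adjusted p 0.0521 to 0.106). Of the 5 tested light chains, 2 were higher and 3 lower at P0, where 34.4% of all genes were called, and 1 of 5 (Slc7a5, lower) was called at E17.5, where 13% were. The other 3 light chains of the list used (Slc7a9, Slc7a10 and Slc7a13) were left out by the filter. So were the family members Slc7a12 and Slc7a15, which that list does not hold.

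Carriers of basic amino acids outside the heterodimers are Slc7a1, Slc7a2 and Slc7a3. Slc7a2 stood at 9.87, 10.13, 10.25, 10.23 and 10.65 in the 5 control arrays and 9.32, 8.84, 9.45, 9.38 and 10.15 in the 5 knockout arrays. Knockout replicate 22, at 10.15, lay among the controls and the other 4 below them, with a change of -0.80 ± 0.20 (SE, adjusted p = 0.00486). Its other probe sets changed by 0.07, -0.35 and -0.47, of which 1 above the median went against the sign, and with the mean of all the change was -0.39 (adjusted p = 0.207). Slc7a1 and Slc7a3 did not pass, at -0.09 (adjusted p = 0.681) and 0.18 (adjusted p = 0.667).

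Of 9 tested Slc38a members, 3 were lower and none higher, 33.3% against the 34.4% called among all genes. Slc38a5 stood at 6.14, 6.24, 6.21, 6.35 and 6.52 in the 5 control arrays and 5.01, 4.69, 4.91, 5.46 and 5.07 in the 5 knockout arrays. The nearest arrays of the groups, control replicate 1 at 6.14 and knockout replicate 21 at 5.46, were well apart, and the change was -1.26 ± 0.18 (SE, adjusted p = 0.000108). In knockouts its signal was above the array median in 1 of 5 arrays, against 5 of 5 in controls, so no fold is given.

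Slc38a3 had 8.86, 9.13, 9.17, 9.19 and 9.22 in the 5 control arrays and 8.0, 7.94, 7.87, 8.16 and 8.47 in the 5 knockout arrays. No knockout array reached the lowest control, and the change was -1.03 ± 0.13 (SE, adjusted p = 3.97e-05), 2.04-fold lower. A dimmer probe set of Slc38a3, above the median in 17 arrays, changed by -0.20. Slc38a2, a carrier that cells are known to raise when amino acids are short, had 11.51, 11.55, 11.82, 11.59 and 11.43 in the 5 control arrays and 10.89, 10.90, 10.91, 10.82 and 11.03 in the 5 knockout arrays. Its knockout arrays lay within a narrow band below all controls, and the change was -0.67 ± 0.08 (SE, adjusted p = 3.56e-05), 1.59-fold lower. The other probe sets of Slc38a2 changed by -0.03 and -0.11. Slc38a1, Slc38a2 and Slc38a4 are direct neighbours on chromosome 15. Slc38a1 changed by -0.21 (adjusted p = 0.167) and Slc38a4 by 0.32 (adjusted p = 0.145) at P0, and neither passed. The other probe set of Slc38a1 changed by 0.04, and that of Slc38a4, above the median in all 20 arrays, by -0.41. Slc38a10, which was bright in all arrays, changed by -0.21 (adjusted p = 0.0514), and it was called under 8 of 29 alternatives. Its other probe sets changed by -0.23, -0.18, 0.51, 0.36, -0.13 and 0.03.

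Of the Slc16a genes, Slc16a10, which carries phenylalanine, tyrosine and tryptophan, had the largest rise at P0 among the probe sets used. Its signal was 6.55, 6.34, 5.99, 6.31 and 6.32 in the 5 control arrays and 7.66, 7.57, 8.47, 6.99 and 7.77 in the 5 knockout arrays. Knockout replicate 19 stood highest at 8.47 and replicate 21 lowest at 6.99, still above all controls, and the change was 1.39 ± 0.33 (SE, adjusted p = 0.00356), 2.62-fold higher. Its other probe sets changed by 0.99, 0.50 and -0.05. At E17.5 knockout replicates 24 and 27 were at 5.91 and 6.19 and replicates 25, 26 and 28 at 7.27, 7.59 and 7.93. The E17.5 change of 0.39 ± 0.33 (SE, adjusted p = 0.422) did not pass.

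Slc16a1, the widespread lactate carrier MCT1, had 8.08, 7.98, 7.74, 7.44 and 8.45 in the 5 control arrays and 9.03, 8.49, 8.94, 8.13 and 9.19 in the 5 knockout arrays. Groups overlapped through control replicate 8 and knockout replicate 21, and the change was 0.82 ± 0.30 (SE, adjusted p = 0.0402), 1.76-fold higher. The call for Slc16a1 ended when control P0 replicate 1, 5, 6 or 7 or knockout P0 replicate 17, 18, 19 or 22 was left out (adjusted p 0.0501 to 0.106). Slc16a13 was lower at this age as well, at -0.41 ± 0.10 (SE, adjusted p = 0.00323), with all knockout arrays below all controls. Slc16a12, a creatine carrier whose mutation is known to cause cataract in people, changed by 0.10 (adjusted p = 0.547) in embryos and -0.20 (adjusted p = 0.165) in newborns.

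Slc1a3, the glutamate carrier GLAST of glial cells, had 6.96, 6.29, 6.17, 5.98 and 6.22 in the 5 control arrays and 7.46, 7.73, 7.59, 7.37 and 7.11 in the 5 knockout arrays. Control replicate 1 was the highest control and knockout replicate 22 the lowest knockout, and the groups did not overlap. The change was 1.13 ± 0.23 (SE, adjusted p = 0.00146), 2.19-fold higher, and its other probe sets changed by 1.64, 1.67, 1.13, 0.48 and 0.30. At E17.5 knockout replicates 24 and 27 stood at 6.29 and 6.33 and the other 3 at 7.36 to 7.59, and the change of 0.47 ± 0.23 (SE, adjusted p = 0.169) did not pass. Slc1a4 and Slc1a5, exchangers of neutral amino acids, changed by -0.21 (adjusted p = 0.109) and -0.12 (adjusted p = 0.542) at P0. The other probe sets of Slc1a4 changed by 0.26 and -0.08 at that age. Slc1a1, a neuronal and epithelial carrier of glutamate and cysteine, lay below the array median in every array and was left out by the filter, without which it was called at P0. Its P0 signals were 4.02, 3.98, 4.33, 4.24 and 4.35 in the 5 control arrays and 4.96, 4.76, 4.73, 4.97 and 4.72 in the 5 knockout arrays, and these did not overlap.

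Slc6a9, the glycine carrier GLYT1, had 7.36, 7.05, 7.19, 6.91 and 7.40 in the 5 control arrays and 8.50, 8.35, 8.28, 7.40 and 8.21 in the 5 knockout arrays. Knockout replicate 21 was barely above the highest control and the other 4 were at 8.21 or more, and the change was 0.97 ± 0.28 (SE, adjusted p = 0.0124), 1.95-fold higher. The creatine carrier Slc6a8 had groups that did not overlap, 6.58, 6.43, 6.60, 6.36 and 6.23 against 6.76, 6.86, 6.68, 6.99 and 6.92, but its change of 0.40 ± 0.18 (SE, adjusted p = 0.0828) did not pass. The taurine carrier Slc6a6 changed by 0.50 ± 0.27 (SE, adjusted p = 0.204) in embryos and 0.55 ± 0.27 (SE, adjusted p = 0.119) in newborns, and did not pass at either age. Slc36a4, a carrier of proline and tryptophan, was higher by 0.26 ± 0.08 (SE, adjusted p = 0.0202). The call for Slc36a4 ended when control P0 replicate 1 or knockout P0 replicate 22 was left out (adjusted p 0.0501 to 0.0518).

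**Figure D3:**
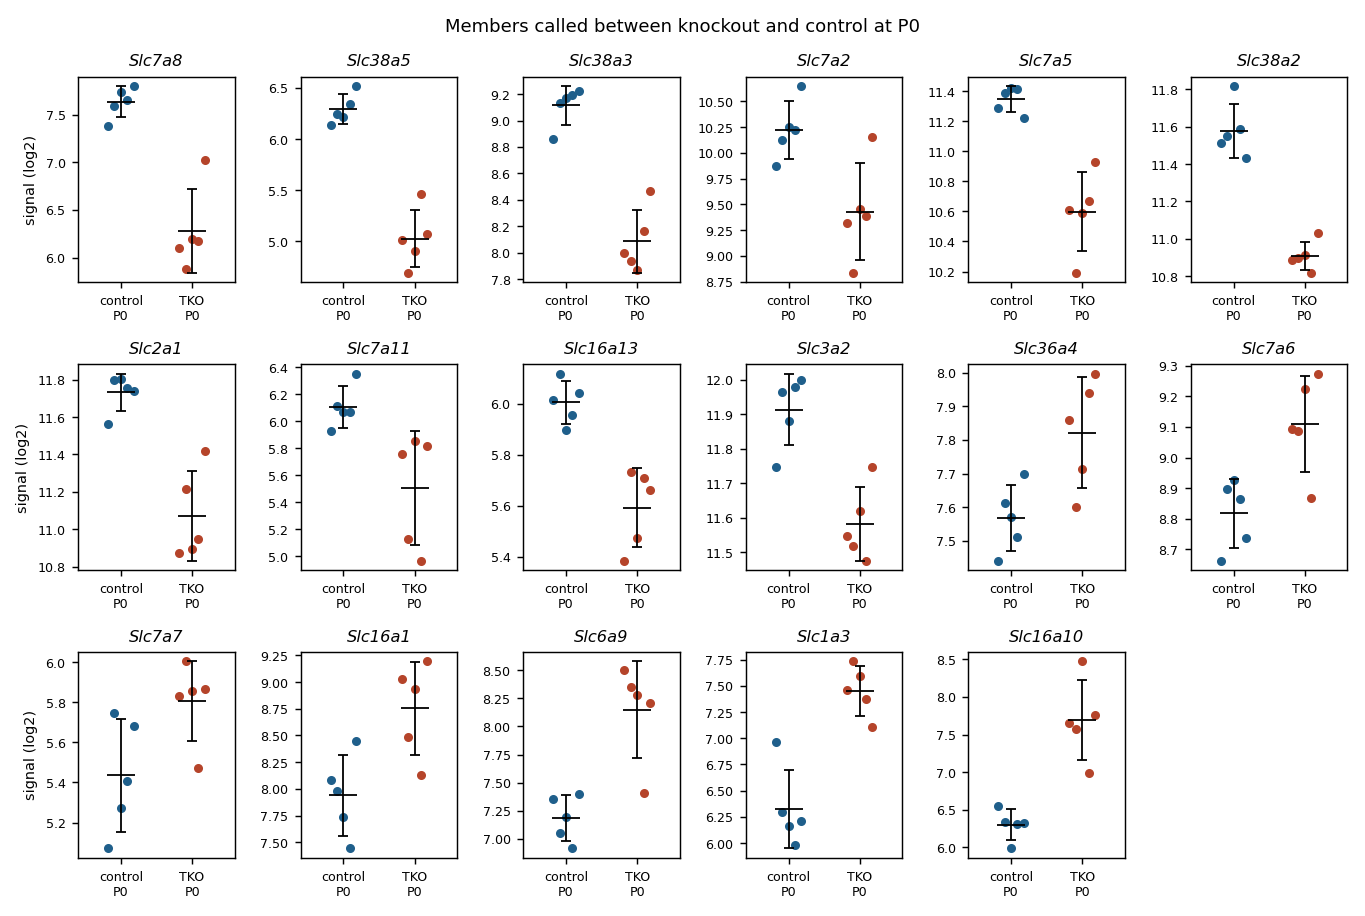
Signal (log2, vertical axis) of the 17 members called at P0 in each of the 5 control and 5 knockout arrays of that age, with the group mean and SD. Slc2a1, Slc7a8, Slc38a2, Slc38a3 and Slc38a5 are lower in every knockout array, and Slc16a10 and Slc1a3 higher.

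Because retina markers were higher in knockouts at P0, their mean level per array was added to the fit as an alternative, and 0 members were then higher and 6 lower at P0. The 6 were Slc2a1, Slc38a2, Slc38a3, Slc38a5, Slc7a8 and Slc16a13, at -0.61 (adjusted p = 0.0095), -0.72 (adjusted p = 0.0017), -0.88 (adjusted p = 0.00406), -1.02 (adjusted p = 0.00976), -1.03 (adjusted p = 0.0406) and -0.57 (adjusted p = 0.00771). The other 4 members that were lower without this term were at -0.58 (adjusted p = 0.0505) for Slc7a5, -0.45 (adjusted p = 0.212) for Slc7a2, -0.33 (adjusted p = 0.35) for Slc7a11 and -0.22 (adjusted p = 0.32) for Slc3a2. The members that were higher without this term were at 1.12 (adjusted p = 0.0905) for Slc16a10, 0.49 (adjusted p = 0.143) for Slc1a3, 0.59 (adjusted p = 0.275) for Slc6a9 and 0.45 (adjusted p = 0.458) for Slc16a1. For Slc7a7, Slc7a6 and Slc36a4 the values were 0.43 (adjusted p = 0.0761), 0.29 (adjusted p = 0.199) and 0.20 (adjusted p = 0.223). At E17.5 the term left Slc38a4 and Slc16a4 higher and Slc38a5, Slc1a4 and Slc16a13 lower, and ended the calls for Slc7a5, Slc38a3, Slc2a9 and Slc6a2 (adjusted p 0.0727 to 0.111). As the retina list moved with genotype at P0, the term takes up part of the genotype difference too. The lens epithelium markers moved with the members that were lower, and their part in those changes was not tested. Under other settings at P0, the call for Slc16a1 ended with the mean of its probe sets, at 0.42 (adjusted p = 0.0789), and calls for Slc16a1 and Slc7a6 (adjusted p 0.0511 to 0.0618) ended without the filter. That for Slc7a6 also ended with arrays centred on the median, at 0.27 (adjusted p = 0.0901), and that for Slc7a7 with only the compared groups in the fit (adjusted p = 0.0502).

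Both ages together called 22 members, of which 4 were called at both, each lower at both: Slc38a5, Slc38a3, Slc7a5 and Slc16a13. Of all genes tested, 13% were called at E17.5 and 34.4% at P0. Their share called at both ages was not counted, so it is not known whether the 4 exceed it. Whether the knockout effect differed between P0 and E17.5 was tested directly, and no member passed, against 0.177% of all genes in the limma fit (0.0337% higher and 0.143% lower). At an unadjusted p below 0.05 there were 15 of 51 members, beside 1866 of 11859 genes tested. With array weights 13 members passed after adjustment. The smallest adjusted p was that of Slc38a2, with a difference of effects of -0.54 ± 0.11 (SE, adjusted p = 0.0651), from -0.13 at E17.5 to -0.67 at P0. It passed without control P0 replicate 8 (adjusted p = 0.0473), without knockout E17.5 replicate 24 (0.0468) or without knockout E17.5 replicate 28 (0.0212). Without knockout P0 replicate 22, 6 members passed: Slc16a4, Slc2a1, Slc38a2, Slc38a3 and Slc7a2 with a lower effect at P0 (adjusted p 0.0215 to 0.0473), and Slc16a8 with a higher one (adjusted p = 0.0405). Shares of all genes were not counted with array weights or with arrays left out.

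**Figure D4:**
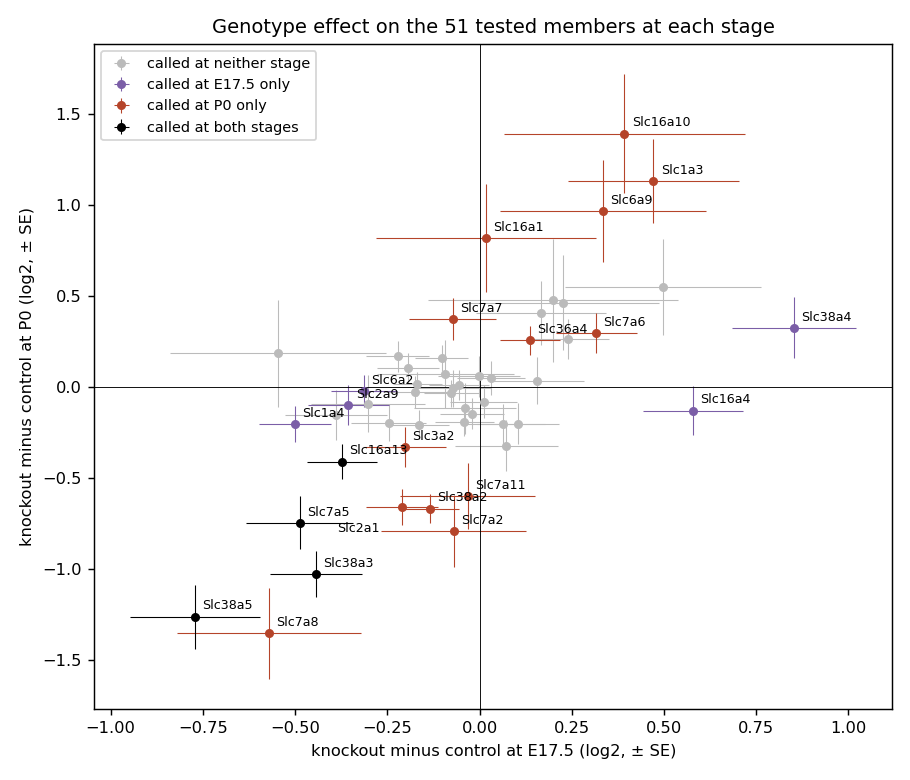
Knockout minus control (log2) at E17.5 (horizontal axis) and at P0 (vertical axis) for the 51 tested members, 1 point each with its standard errors as bars. Slc38a5, Slc38a3, Slc7a5 and Slc16a13, called at both ages, lie in the lower left, and Slc16a10 and Slc1a3 lie highest at P0.

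Of 9 members known as targets of the amino acid response, 0 were higher and 2 lower at E17.5 (Slc1a4 and Slc7a5). Among all genes tested, 5.54% were higher and 7.45% lower at that age. At P0, 1 was higher (Slc6a9) and 4 lower (Slc7a5, Slc7a11, Slc38a2 and Slc3a2), with a median change of -0.21 against -0.01 for all genes. These 5 of 9 stand beside the 34.4% of all genes called at P0. Of 23 other tested genes of that response, 6 were higher and 2 lower at P0, about the same share as among all genes. Those higher included Atf4 itself at 0.24 ± 0.08 (SE, adjusted p = 0.0316), its relative Atf5 at 0.66 ± 0.17 (SE, adjusted p = 0.00597) and asparagine synthetase Asns at 0.48 ± 0.14 (SE, adjusted p = 0.0152), with Mthfd2, Gpt2 and Cth, and those lower were Aldh18a1 and Vldlr. At E17.5 the same 23 gave 0 higher and 4 lower, beside the 13% of all genes called at that age. The 3 tested members with TGATGNAA in their promoter windows did not move alike: Slc7a11 was lower and Slc7a7 higher at P0, and Slc1a4 was lower at E17.5.

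Of 16 tested partners and regulators of glucose and lactate transport, 6 were higher and 2 lower at P0, where 17.1% of all genes were higher and 17.3% lower. Txnip, which is known to limit glucose uptake through GLUT1, was higher by 1.61 ± 0.31 (SE, adjusted p = 0.000922). Emb, a chaperone of lactate carriers, was higher by 0.59 ± 0.13 (SE, adjusted p = 0.00286), and the lactate dehydrogenase genes Ldha and Ldhb by 0.64 ± 0.12 (SE, adjusted p = 0.00102) and 0.77 ± 0.24 (SE, adjusted p = 0.0193). Hexokinase 2, Hk2, was lower by 0.62 ± 0.14 (SE, adjusted p = 0.0023). Nptn, the other gene of this list called lower, changed by -0.37 ± 0.08 (SE, adjusted p = 0.00133). Bsg, also in the list, changed by 0.16 (adjusted p = 0.0762) and did not pass. At E17.5, 1 of the 16 was higher, Emb at 0.87 ± 0.13 (SE, adjusted p = 0.00079), and 1 lower, Hk1. Of 23 genes that sense amino acids at the lysosome, 4 were higher and 2 lower at P0 and 1 higher and 2 lower at E17.5, and the member among them, Slc38a9, was called at neither. The share of the lysosomal list called at P0 was below the 34.4% of all genes. The E17.5 counts of both lists stand beside the 13% of all genes called at that age. Of the 12 tested carriers with a role named for the lens, 1 was higher and 6 lower at P0 (Slc6a9 against Slc2a1, Slc7a5, Slc3a2, Slc7a8, Slc7a11 and Slc38a2), and 1 was lower at E17.5. That list was chosen with these results known, and 34.4% and 13% of all genes were called at the same ages.

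Between E17.5 and P0 in control lenses, 3 of the 51 members rose and 6 fell, 17.6% against 17.3% of all genes (4.92% higher and 12.3% lower). The lactate exporter of glycolytic cells, Slc16a3 or MCT4, had the largest fall among the probe sets used. It went from 5.99, 6.44, 6.90, 6.57 and 6.53 to 5.23, 5.43, 5.34, 5.47 and 5.37. The ages did not overlap, and the change was -1.12 ± 0.14 (SE, adjusted p = 5.82e-05), 2.17-fold lower at birth. The sugar carrier Slc2a8 rose from 8.20, 8.19, 8.03, 8.07 and 8.20 to 8.62, 8.70, 8.79, 8.76 and 8.45, by 0.52 ± 0.08 (SE, adjusted p = 0.000239), also without overlap. Slc2a1 was lower by 0.34 ± 0.10 (SE, adjusted p = 0.0239). The call for Slc2a1 ended when control P0 replicate 1 or control E17.5 replicate 12, 13 or 15 was left out (adjusted p 0.0577 to 0.0695).

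Falls were also called for the basic amino acid carriers Slc7a1 at -0.66 ± 0.16 (SE, adjusted p = 0.00695) and Slc7a3 at -0.88 ± 0.29 (SE, adjusted p = 0.0454), for Slc1a4 at -0.61 ± 0.10 (SE, adjusted p = 0.000367) and for Slc7a7 at -0.49 ± 0.12 (SE, adjusted p = 0.00793). Slc7a3 was above the array median in 9 of 20 arrays. Control E17.5 replicate 10 had its highest signal, 6.69, with the next control of that age at 5.86. The call for Slc7a3 ended when control P0 replicate 1, 5, 6, 7 or 8, control E17.5 replicate 10, 11 or 15, knockout P0 replicate 17, 18, 19, 21 or 22 or knockout E17.5 replicate 26 was left out (adjusted p 0.0503 to 0.121). Slc1a7, a glutamate carrier known from retina, and the vesicle carrier Slc6a17 rose by 0.27 ± 0.08 (SE, adjusted p = 0.03) and 0.27 ± 0.07 (SE, adjusted p = 0.0183). Slc1a7 was above the array median in 13 of 20 arrays. The call for Slc1a7 ended when control P0 replicate 1, 7 or 8 or control E17.5 replicate 12 or 15 was left out (adjusted p 0.0585 to 0.0901). The call for Slc6a17 ended when control P0 replicate 7 was left out (adjusted p = 0.0528). The call for Slc7a1 also ended with the mean of its probe sets, at -0.29 (adjusted p = 0.0596), that for Slc7a3 without the filter (adjusted p = 0.0575), and those for Slc7a3 and Slc1a7 (adjusted p 0.0653 to 0.152) with the retina term. Ages did not overlap for 3 members with higher and 5 with lower signal at birth, Slc16a9 and Slc7a6os among them without being called, where 7.78% and 17.2% of all genes did not, or 24.9% in both directions.

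In knockout lenses, 10 members rose and 10 fell between the ages, 39.2% against 33.2% of all genes (14.4% higher and 18.9% lower). These comparisons use the same arrays as those between genotypes. Both genotypes gave falls of Slc16a3, at -0.89 (adjusted p = 0.000212) in knockouts, of Slc2a1 at -0.79 (adjusted p = 3.47e-05), of Slc7a1 at -0.45 (adjusted p = 0.033) and of Slc1a4 at -0.31 (adjusted p = 0.02), and rises of Slc2a8, Slc1a7 and Slc6a17. The call for Slc7a1 ended when knockout P0 replicate 17, 18, 19 or 21 or knockout E17.5 replicate 24 or 25 was left out (adjusted p 0.0574 to 0.0751). The call for Slc1a4 ended when knockout P0 replicate 21 or knockout E17.5 replicate 25 or 26 was left out (adjusted p 0.0518 to 0.0534). Called in knockouts and not in controls were falls of Slc16a4 at -0.92 (adjusted p = 0.000137), Slc7a11 at -0.56 (adjusted p = 0.0236), Slc38a6 at -0.48 (adjusted p = 0.0135), Slc38a2 at -0.35 (adjusted p = 0.00281), Slc38a1 at -0.32 (adjusted p = 0.0352) and Slc7a6os, and rises of 0.24 to 0.41 for Slc16a8, Slc16a9, Slc2a4, Slc2a5, Slc2a9, Slc6a2 and Slc6a7. Among the genes with such rises, Slc6a7 had an E17.5 knockout mean of 6.77 and the others 5.42 to 5.79. Array medians lay between 5.05 and 5.25, so most of these rises began not far above them. The call for Slc7a11 ended when knockout P0 replicate 18 or 21 or knockout E17.5 replicate 25 was left out (adjusted p 0.0547 to 0.0705). The call for Slc38a1 ended when knockout P0 replicate 17, 18 or 19 or knockout E17.5 replicate 25 or 26 was left out (adjusted p 0.0731 to 0.108). The call for Slc7a6os ended when knockout P0 replicate 18 or 21 or knockout E17.5 replicate 24, 25 or 26 was left out (adjusted p 0.0621 to 0.0904). The call for Slc16a9 ended when control P0 replicate 1, 5, 6, 7 or 8, control E17.5 replicate 10, 11, 13 or 15, knockout P0 replicate 17, 18 or 21 or knockout E17.5 replicate 24, 26 or 27 was left out (adjusted p 0.0526 to 0.132). The call for Slc2a9 ended when knockout E17.5 replicate 25 or 26 was left out (adjusted p 0.0513 to 0.0530). With only the compared groups in the fit, calls ended for Slc16a9, Slc1a4, Slc2a4, Slc2a9, Slc38a1, Slc38a6, Slc7a11 and Slc7a6os (adjusted p 0.0680 to 0.163). Quantile normalization ended those for Slc1a4, Slc38a1, Slc7a1 and Slc7a6os (adjusted p 0.0705 to 0.0819), and the mean of the probe sets those for Slc16a4, Slc38a1 and Slc7a1 (adjusted p 0.0677 to 0.202). Single calls ended with array weights (Slc2a4, adjusted p = 0.187), with arrays centred on the median (Slc16a9, 0.077) and without probe sets marked as matching several transcripts (Slc38a1, 0.288). Ages did not overlap for 5 that rose and 4 that fell, where 4.73% and 7.02% of all genes did not, or 11.8% in both directions. The difference between genotypes in these changes is the same contrast as that between ages in the knockout effect, in which no member passed.

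**Figure D5:**
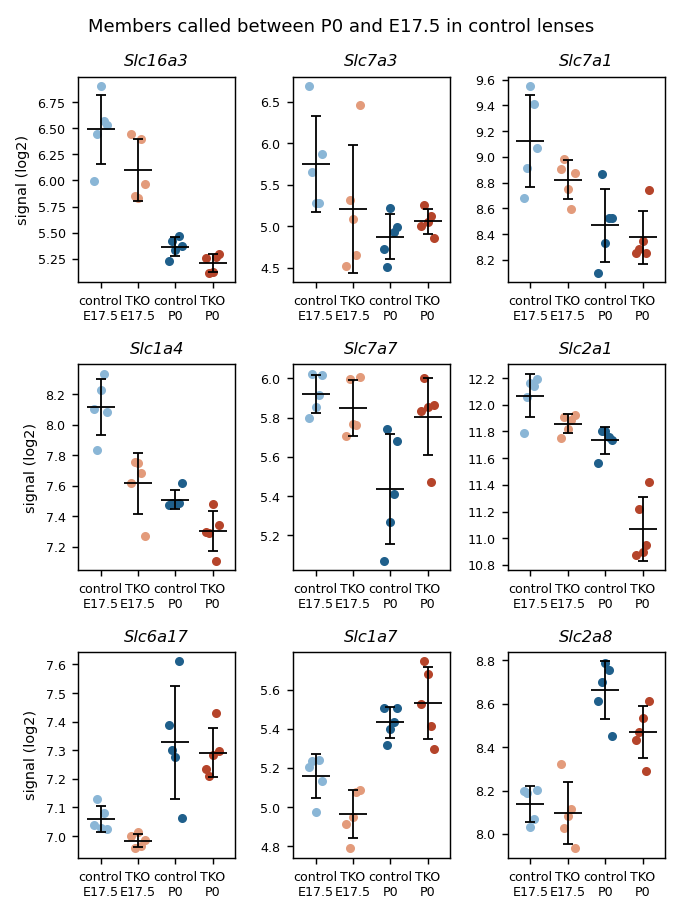
Signal (log2, vertical axis) in all 4 groups of 5 arrays for the 9 members called between E17.5 and P0 in control lenses, with the group mean and SD. Slc16a3 falls and Slc2a8 rises at birth in both genotypes.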

How the data were processed

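Each sample gave 2 ug of RNA for labelling with biotin, per the labels' protocols. The authors deposited log2 signals per probe set; background correction, summary and normalization are not given in the sources, and the log base was read from the range of the deposited values. Probe sets with 1 gene (34945 of 45101) were named from the platform annotation, and symbols updated through RefSeq (GRCm38.p6). Genes above the array median in at least 5 of 20 arrays (11859) were fitted together with limma 3.58.1 (R 4.3.3): 1 mean per group, 16 residual degrees of freedom, two-sided moderated tests, Benjamini-Hochberg adjustment over all genes, called at an adjusted p below 0.05. Changes are differences of log2 group means. Depth does not apply to arrays; their number limits the precision. The fit was tested on simulated data. Named are, per comparison and direction, up to 12 called members without overlap, the 10 highest control means and the lens-role and amino acid response members; all other called members are named too. The members and lists were chosen with earlier results of these data known. Alternatives were other filters, probe set rules, quantile normalization, arrays centred on their medians, array weights, a retina marker term, a fit of the compared groups only and each array left out.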

Additional observations from a re-analysis of the deposited data

Results flagged for a closer look

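In the 35 named members, 12 of 140 groups of 5 arrays had 1 array that stood far from the other 4, and chance marks about 1 in 20 groups. Knockout P0 replicate 22 was high for Slc16a4 (6.34, nearest 5.96), Slc7a1 (8.74, nearest 8.34) and Slc7a8 (7.03, nearest 6.19). Knockout P0 replicate 21 was low for Slc6a9 (7.40, nearest 8.21). Knockout E17.5 replicate 28 was low for Slc1a4 (7.27, nearest 7.62) and Slc3a2 (11.22, nearest 11.84), and replicate 27 low for Slc38a4 (8.01, nearest 8.33). Control P0 replicate 1 was low for Slc2a1 (11.56, nearest 11.74) and Slc38a3 (8.86, nearest 9.13). Control P0 replicate 8 was high for Slc1a4 (7.62, nearest 7.49), and control P0 replicate 7 high for Slc1a5 (7.06, nearest 6.71). Control E17.5 replicate 11 was low for Slc16a12 (7.33, nearest 7.75).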

How the results depend on the processing

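No called member changed sign under any alternative that tested it, and 22 of 55 calls held under all alternatives that tested the member. At E17.5 the count of 9 became 4 with the stricter filter (75th percentile), 3 with only the compared groups in the fit, 24 with array weights, 5 with the retina term and 5 to 13 with 1 array left out. At P0 the count of 17 became 30 with array weights, 6 with the retina term and 12 to 23 with 1 array left out. For the difference between ages, 0 became 1 with the stricter filter, 13 with array weights and 0 to 6 with 1 array left out. Between ages in controls, 9 became 5 with the stricter filter, 16 with only the compared groups, 19 with array weights and 6 to 10 with 1 array left out. In knockouts, 20 became 39 without the filter, 7 with the stricter one, 12 with the mean of a gene's probe sets, 12 with only the compared groups and 14 to 27 with 1 array left out. The 41 members above the median in all arrays became 24 with the median of 1 probe set per gene. The stricter filter ended no call of a member that it kept in the test. Its lower counts came from called members left untested. Causes of the other shifts were not tested, and shares of all genes were not counted under the alternatives. No paired analysis was possible because the groups share no replicate numbers. Members below the median were tested only without the filter.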
